A study of Mus musculus with 12 samples.

Results

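Replication-dependent histone genes were followed in erythroblasts, the dividing red cell precursors of mouse marrow, that carry a stabilised cyclin E. They were chosen by symbol in the array's annotation, as H1f1 to H1f5 and as H2ac, H2bc, H3c or H4c followed by a number. The rule found 55 genes of 19057 with a probe of 1 symbol, and 84 of 45281 probes. Class H1 had 5 genes, H2A 16, H2B 13, H3 9 and H4 12. RNA came from bone marrow cells sorted by FACS for Ter119, which marks erythroid cells, and for high CD71, the receptor that takes up transferrin. The knock-in allele encodes cyclin E changed by T74A and T393A, which escapes degradation, and the wild type mice were littermates of the knock-in mice, all on strain background 129. Each genotype had 6 one-colour Illumina bead arrays. Age, sex and the number of animals are not given in the labels.

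Adjacent array numbers were taken as duplicates and averaged, which the labels do not state, so that 3 knock-in samples (arrays 3+4, 5+6 and 11+12) were compared with 3 wild type samples (arrays 1+2, 7+8 and 9+10). For the histone probes the median difference within such a pair was 0.0407 to 0.074 on the log2 scale, against 0.167 to 1.09 between arrays of a genotype that are not adjacent. Separate animals are not stated for the samples, so the p-values cover the spread among these samples alone, which may be technical, and the number of arrays limits the precision. Of the 55 genes, 51 had a probe above the background limit on at least 6 of the 12 arrays and were tested: 3 of H1, 15 of H2A, 12 of H2B, 9 of H3 and 12 of H4. H1f4, the testis gene H2ac1 and its neighbour H2bc1 were above the limit on 0 arrays and H1f3 on 1 array, and these 4 genes have no test.

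Replication-dependent histones are the bulk of the protein on which DNA is wound: H2A, H2B, H3 and H4 form the core of the nucleosome, and H1 binds the linker between cores. Their genes lie in clusters and are transcribed mainly in S phase, when cyclin E with Cdk2 phosphorylates Npat, the coactivator that gathers at the clusters. Their mRNAs end in a stem-loop bound by Slbp instead of a poly(A) tail and are degraded when DNA synthesis stops. Erythroblasts at the sorted stage divide quickly, so that histone synthesis is high. The labels do not say how cRNA synthesis was primed, and for mRNAs without a poly(A) tail that choice can set the signal. Core histone genes of a class mostly encode near-identical proteins, so a probe may read several genes. Without probe sequences this could not be checked, and gene names below stand for the probe's annotation.

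Promoters of 50 of the 55 genes were found among the RefSeq windows of build GRCm38.p6, each with 250 bases before and 50 after the annotated start, and are shown from 250 before to 20 after it. One promoter of each class is shown because it belongs to the member with the smallest p among those with a window: H1f2 at chr13:23738557-23738826, H2ac18 at chr3:96245247-96245516, H2bc14 at chr13:21721794-21722063, H3c10 at chr13:21717378-21717647 and H4c11 at chr13:21734784-21735053, all on the plus strand. Capitals mark 5 motifs searched on both strands, the TATA box TATAAA, the CCAAT box CCAAT, the octamer ATTTGCAT, the H1 box AAACACA and CGGAC, the core of the site of Hinfp, an activator of H4 genes.
H1f2: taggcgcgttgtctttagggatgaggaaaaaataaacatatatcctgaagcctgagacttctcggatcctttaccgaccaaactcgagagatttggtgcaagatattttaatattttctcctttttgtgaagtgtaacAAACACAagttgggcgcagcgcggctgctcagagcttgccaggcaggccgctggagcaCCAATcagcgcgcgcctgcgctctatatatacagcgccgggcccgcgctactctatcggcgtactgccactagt
H2ac18: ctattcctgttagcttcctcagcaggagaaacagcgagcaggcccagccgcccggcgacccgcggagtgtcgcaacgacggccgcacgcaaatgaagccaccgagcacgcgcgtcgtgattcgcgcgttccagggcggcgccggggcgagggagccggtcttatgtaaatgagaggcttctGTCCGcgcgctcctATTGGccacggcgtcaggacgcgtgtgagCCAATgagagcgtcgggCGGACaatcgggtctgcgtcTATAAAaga
H2bc14: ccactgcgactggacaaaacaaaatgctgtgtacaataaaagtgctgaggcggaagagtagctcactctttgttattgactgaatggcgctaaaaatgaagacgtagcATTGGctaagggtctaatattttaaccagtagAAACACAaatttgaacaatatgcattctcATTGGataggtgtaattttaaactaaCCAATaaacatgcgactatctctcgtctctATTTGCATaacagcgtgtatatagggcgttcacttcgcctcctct
H3c10: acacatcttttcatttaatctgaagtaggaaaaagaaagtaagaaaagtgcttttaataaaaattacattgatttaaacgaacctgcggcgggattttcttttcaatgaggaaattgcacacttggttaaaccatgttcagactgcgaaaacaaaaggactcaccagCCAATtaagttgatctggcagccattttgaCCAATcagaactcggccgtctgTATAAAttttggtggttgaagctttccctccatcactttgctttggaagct
H4c11: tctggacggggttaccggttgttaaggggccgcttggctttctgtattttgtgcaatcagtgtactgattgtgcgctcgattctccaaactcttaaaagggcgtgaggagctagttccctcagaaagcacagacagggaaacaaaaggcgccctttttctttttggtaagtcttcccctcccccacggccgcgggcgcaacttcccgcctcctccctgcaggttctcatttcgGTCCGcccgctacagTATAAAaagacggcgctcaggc

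The classes differed in these motifs. The CCAAT box stood in 5 of 5 H1, 16 of 16 H2A, 11 of 11 H2B and 7 of 7 H3 windows but in 3 of 11 H4 windows, and in 37.4% of 32851 mouse promoter windows of the same length. The Hinfp core stood in 11 of 11 H4 windows, 6 of 16 H2A, 3 of 11 H2B and 0 of H1 and H3, against 23.4% of all windows. The octamer, read by POU-domain factors, was found in 7 of 11 H2B and 6 of 16 H2A windows and in 0 of the other classes, against 1.74% of all windows. The H1 box was in 4 of 5 H1 windows, against 7.18% of all, and TATAAA in 31 of 50 histone windows, against 13.6%. In the promoters shown, CCAAT boxes on either strand began at -54 (H1f2) and at -55 and -26 (H2ac18) relative to the annotated start. Those of H2bc14 began at -142, -81 and -55, and those of H3c10 at -83 and -53. The H2ac18 box at -55 is on the minus strand, and a shared position was not tested. TATAAA began at -31 in H3c10, at -2 in H4c11 and 12 bases after the annotated start in H2ac18. The annotated starts thus lie at unlike distances from TATAAA, and near-equal offsets between these genes need not be like positions. A match describes these letters only and is not a site of binding.

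The comparison asked whether histone transcripts differ in erythroblasts with stabilised cyclin E. Expression of 46 of 51 tested histone genes (90.2%) was higher on average in knock-in than in wild type samples, against 41.6% of all 9388 tested genes. Over the 51 genes the mean log2 intensity was 10.91 ± 0.46 in knock-in samples and 10.48 ± 0.18 in wild type samples (SD, n = 3 each), and the median difference was 0.48, against -0.03 over all genes. None of them passed the test in either direction: limma called 0 histone genes at an adjusted p under 0.05, where it called 0.0852% of all genes higher and 0% lower, and the lowest adjusted p was 0.0985. At an unadjusted p under 0.05, 8 of 51 (15.7%) were higher and 0 lower, against 5.56% and 3.09% of all genes. The genotypes did not overlap for 6 genes (11.8%), all higher in knock-in samples, against 7.23% of all genes that were higher without overlap and 6.47% that were lower. Those 6 were H1f2, H2ac18, H2ac4, H2ac8, H2ac6 and H2bc4.

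**Figure D1:**
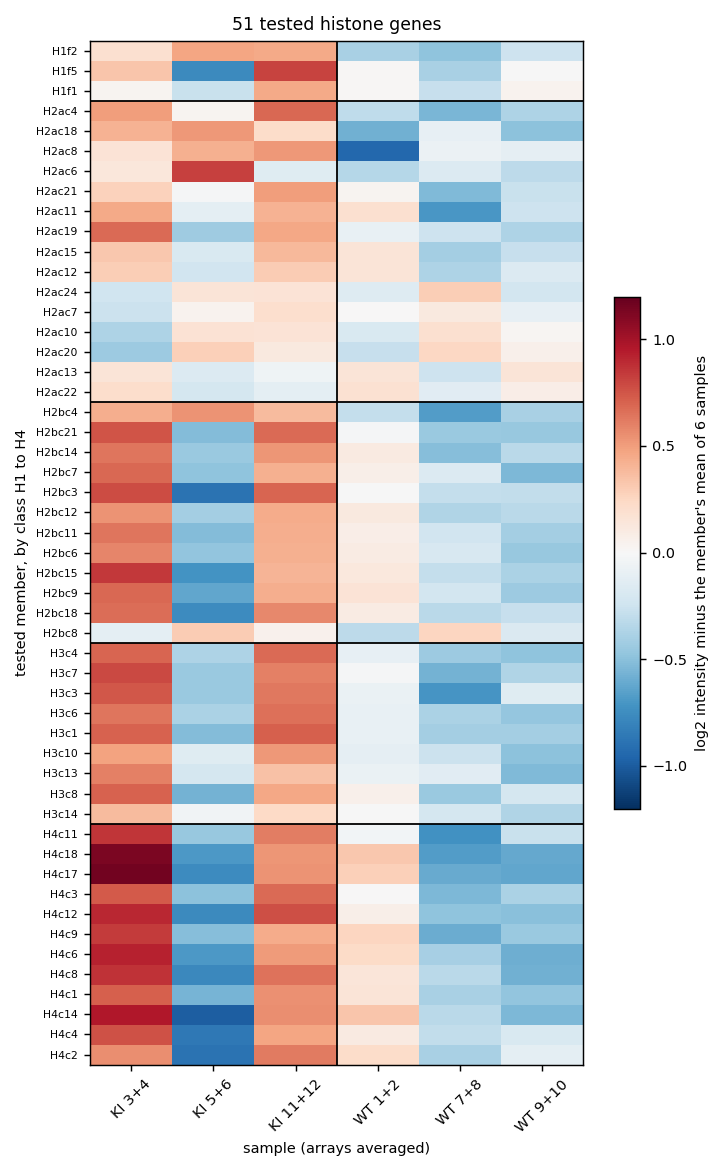
Log2 intensity of the 51 tested histone genes in each sample (columns, 3 knock-in then 3 wild type, each the mean of 2 arrays), drawn as the difference from that gene's mean over the 6 samples (red above, blue below), with genes grouped by class. Knock-in samples 3+4 and 11+12 are red for most genes of H2B, H3 and H4, while knock-in sample 5+6 is blue for all 12 H4 genes.

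The knock-in samples did not stand together. Sample 5+6 was the lowest of the 3 knock-in samples for 41 of 51 histone genes (80.4%), against 32.2% of all genes, and lay a median of -1.04 log2 units from the mean of the other 2 knock-in samples, against 0.02 over all genes. This held for 12 of 12 H4 genes, 9 of 9 H3, 10 of 12 H2B, 8 of 15 H2A and 2 of 3 H1. A low sample 5+6 was not particular to histones. Listed S phase genes averaged 9.04 in it, against 9.33 and 9.53 in knock-in samples 3+4 and 11+12. Listed histone chaperone genes averaged 8.75 in it, against 9.02 and 9.16 in those samples. The median SD of a histone gene was 0.60 among knock-in and 0.26 among wild type samples, against 0.15 and 0.18 over all genes. In bulk samples, fewer cells of a type and less RNA per cell cannot be told apart.

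**Figure D2:**
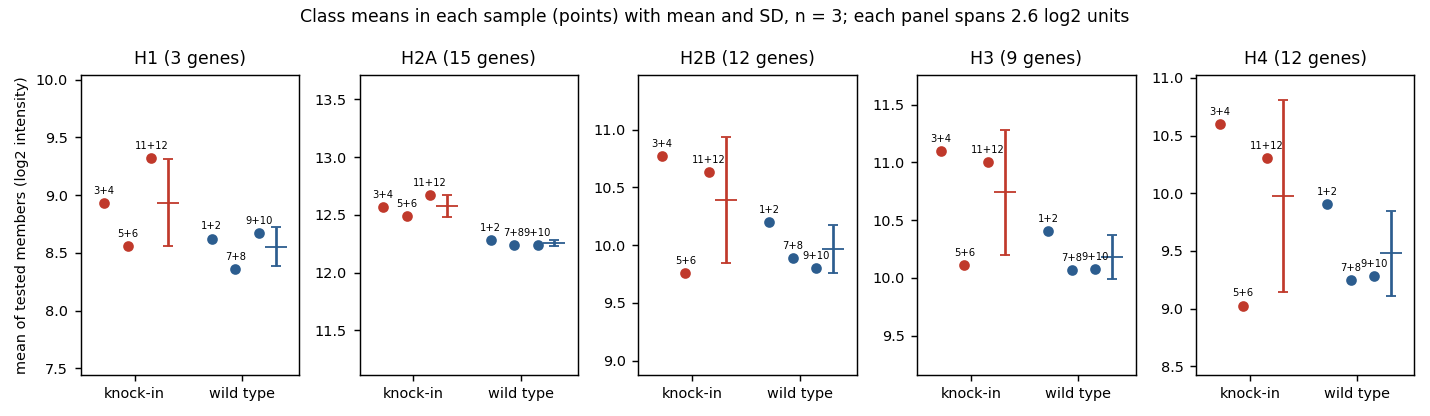
Mean log2 intensity of each class's tested genes in each sample (points, labelled by their arrays), with the mean and SD of 3 samples per genotype, knock-in in red and wild type in blue. The H2A means do not overlap, while in H2B, H3 and H4 knock-in sample 5+6 lies among or below the wild type samples.

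By class, the H3 genes had the largest median difference, 0.60, with 9 of 9 higher in knock-in samples. H4 followed at 0.51 with 12 of 12 higher, then H2B at 0.38 with 12 of 12, H2A at 0.35 with 10 of 15 and H1 at 0.25 with 3 of 3. The order of these medians was not tested, and H4 stood above H3 without wild type sample 1+2 (0.75 for H4 and 0.71 for H3) and without knock-in sample 5+6 (0.99 for H4 and 0.96 for H3). The class means were 8.94 ± 0.38 in knock-in and 8.55 ± 0.17 in wild type samples for H1, and 12.58 ± 0.09 in knock-in and 12.25 ± 0.03 in wild type samples for H2A (SD, n = 3 each). For H2B they were 10.39 ± 0.55 in knock-in and 9.96 ± 0.21 in wild type samples, for H3 10.74 ± 0.54 in knock-in and 10.18 ± 0.19 in wild type samples, and for H4 9.98 ± 0.83 in knock-in and 9.48 ± 0.37 in wild type samples. H2A was the class whose sample means did not overlap, at 12.57, 12.49 and 12.67 in knock-in samples 3+4, 5+6 and 11+12, against 12.28, 12.24 and 12.24 in wild type samples 1+2, 7+8 and 9+10. The H4 means were 10.60, 9.03 and 10.31 in knock-in samples, against 9.90, 9.25 and 9.29 in wild type samples, so that knock-in sample 5+6 was below all 3 wild type samples.

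Linker histone H1 was led by H1f2, a somatic H1 subtype. H1f2 read 11.96, 12.25 and 12.23 in knock-in samples 3+4, 5+6 and 11+12, against 11.39, 11.29 and 11.53 in wild type samples 1+2, 7+8 and 9+10. All knock-in samples lay above all wild type samples, with a difference of 0.74 ± 0.12 (SE), or 1.67-fold (95% interval 1.37 to 2.04), short of the threshold over all genes (limma adjusted p = 0.121). Its dimmer probe gave 11.96, 12.11 and 11.88 in knock-in samples and 11.45, 11.00 and 11.30 in wild type samples, a difference of 0.73. H1f2 was the H1 gene in which knock-in sample 5+6 was not the lowest.

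H1f5, another somatic H1 subtype, read 8.25, 7.15 and 8.73 in knock-in samples, against 7.93, 7.53 and 7.91 in wild type samples. Its groups overlapped, because knock-in sample 5+6 was the lowest of all 6, and the difference was 0.25 ± 0.39 (limma adjusted p = 0.968). H1f1 was dim, at 6.57, 6.28 and 7.00 in knock-in and 6.55, 6.26 and 6.59 in wild type samples, with a difference of 0.15 ± 0.20 (limma adjusted p = 0.961). Without knock-in sample 11+12 the median of the H1 class was -0.04.

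Among the core histones, H2A split into bright and moderate genes. H2ac18 had the smallest p of the class and lies on chromosome 3, away from the large cluster on chromosome 13. It read 9.73, 9.84 and 9.54 in knock-in samples, against 8.74, 9.21 and 8.82 in wild type samples, with no overlap and a difference of 0.78 ± 0.16 (1.72-fold, 1.32 to 2.22, limma adjusted p = 0.161). H2ac4 read 8.40, 7.92 and 8.59 in knock-in samples, against 7.59, 7.35 and 7.53 in wild type samples, a difference of 0.81 ± 0.18 (1.76-fold, limma adjusted p = 0.205). These were the H2A genes with differences furthest from 0, and their genotypes did not overlap.

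H2ac8 read 7.77, 8.02 and 8.12 in knock-in samples, against 6.66, 7.53 and 7.49 in wild type samples, without overlap but with wild type sample 1+2 well below the other 2. Its difference was 0.74 ± 0.25 (limma adjusted p = 0.419), with 0.46 when wild type sample 1+2 was left out and 1.18 without background correction. H2ac6, also without overlap, differed by 0.54 ± 0.24 (limma adjusted p = 0.638) and was above the limit on 6 of 6 knock-in and 5 of 6 wild type arrays. At the other end, H2ac22 read 15.22, 14.80 and 14.90 in knock-in samples, against 15.20, 14.88 and 15.09 in wild type samples. That difference of -0.08 ± 0.15 was the lowest of all histone genes and lay within the spread of either genotype.

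The 5 histone genes lower in knock-in samples were all H2A genes near the top of the arrays' range: H2ac22, H2ac13, H2ac10, H2ac20 and H2ac7, with differences of -0.08 to -0.01. With H2ac12 and H2ac24 they made up the 7 genes whose probes, 9 in all, averaged above 14 on the log2 scale. These 9 probes read 13389 to 56258 intensity units before correction and ranked among the 94 brightest of 45281 on every array, where array maxima were 41615 to 56837. Differences of the 9 probes were -0.12 to 0.25. The file marks no saturated beads, and quantile normalization gives the brightest probe of any array the same value: H2ac13 stood at 15.60 in 1 knock-in and 2 wild type samples. Under 75th percentile scaling, which does not tie the top of the arrays together, all 51 histone genes were higher in knock-in samples, H2ac22 at 0.17, and the H2A median was 0.49. That scaling also put 57.2% of all genes above 0, in place of 41.6%.

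**Figure D3:**
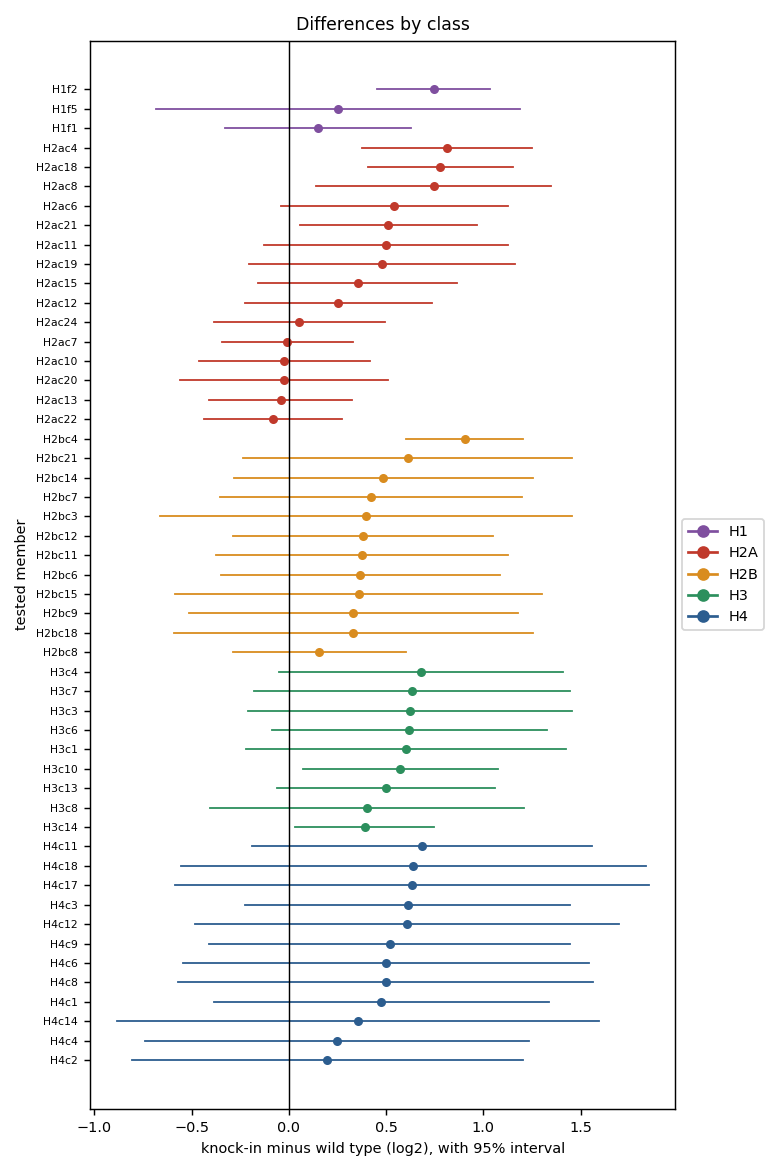
Knock-in minus wild type difference (log2, horizontal) of each tested histone gene with its 95% interval from limma, coloured by class and ordered by size within class. The bright H2A genes lie near 0, while H1f2, H2ac4, H2ac18 and H2bc4 have intervals furthest from 0, and most H4 intervals are wide, as are those of H2bc3 and H1f5.

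In H2B, H2bc4 had the smallest p of all 51 genes. It read 11.09, 11.20 and 11.03 in knock-in samples, against 10.37, 9.99 and 10.26 in wild type samples. All knock-in samples exceeded all wild type samples, by 0.90 ± 0.13 on average (1.87-fold, 1.52 to 2.31, limma adjusted p = 0.0985). The other 11 H2B genes overlapped between the genotypes, and knock-in sample 5+6 was the lowest knock-in sample for 10 of the 12. H2bc21 read 11.47, 10.20 and 11.40 in knock-in samples, against 10.70, 10.27 and 10.26 in wild type samples, a difference of 0.61 ± 0.35 (limma adjusted p = 0.758). H2bc14 read 10.67, 9.57 and 10.55 in knock-in samples, against 10.13, 9.51 and 9.69 in wild type samples, a difference of 0.49 ± 0.32 (limma adjusted p = 0.804).

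H2bc8 had the lowest H2B difference with the background correction used here, 0.16 ± 0.18, but a larger one than H2bc4 without it (1.30 for H2bc8 and 0.94 for H2bc4) and with the authors' processed values. It was above the background limit on 6 of 6 knock-in and 4 of 6 wild type arrays. It read 6.22, 6.64 and 6.39 in knock-in samples, against 6.02, 6.60 and 6.16 in wild type samples. Here knock-in sample 5+6 was the highest of the 6, unlike in most of its class.

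Several H2A and H2B genes face each other across a shared promoter, and 5 such pairs with overlapping windows were tested on both sides. H2ac8 and H2bc8, whose windows share 279 bases, differed between genotypes by 0.74 ± 0.25 and 0.16 ± 0.18. H2ac7 and H2bc7 differed by -0.01 ± 0.14 and 0.42 ± 0.32, H2ac11 and H2bc11 by 0.50 ± 0.26 and 0.37 ± 0.31, H2ac12 and H2bc12 by 0.25 ± 0.20 and 0.38 ± 0.28, and H2ac15 and H2bc15 by 0.35 ± 0.21 and 0.36 ± 0.39. No difference within a pair was tested. By chromosome, 38 of 42 tested genes on chromosome 13 and 8 of 9 on chromosome 3 were higher in knock-in samples, each with a median of 0.48.

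All 9 H3 genes were higher on average in knock-in samples, and all 9 overlapped. H3c10 read 12.33, 11.70 and 12.37 in knock-in samples, against 11.73, 11.59 and 11.35 in wild type samples. Knock-in sample 5+6 lay just below wild type sample 1+2, and the difference was 0.57 ± 0.21 (1.49-fold, limma adjusted p = 0.483). H3c4 had the largest H3 difference, 0.68 ± 0.30 (limma adjusted p = 0.638), from 11.94, 10.87 and 11.91 in knock-in and 11.13, 10.79 and 10.75 in wild type samples. H3c14 had the lowest, 0.39 ± 0.15 (limma adjusted p = 0.527), from 11.94, 11.52 and 11.80 in knock-in and 11.55, 11.35 and 11.20 in wild type samples. The low spread of H3c14 gave it a smaller p than the larger difference of H3c4.

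H4 genes, which encode the same core protein, were higher in knock-in samples in 12 of 12 cases, with a median SD of 0.86 in knock-in and 0.36 in wild type samples. H4c11 read 10.28, 8.97 and 10.04 in knock-in samples, against 9.39, 8.70 and 9.16 in wild type samples, a difference of 0.68 ± 0.36 (limma adjusted p = 0.72). H4c3 differed by 0.61 ± 0.35 and H4c9 by 0.52 ± 0.39 (limma adjusted p = 0.752 and 0.864), and the 12 standard errors ran from 0.35 to 0.52. H4c2 had the lowest difference, 0.20 ± 0.42, from 8.65, 7.20 and 8.71 in knock-in and 8.30, 7.69 and 7.96 in wild type samples. No H4 gene reached an unadjusted p under 0.05, and in the H4 class knock-in sample 5+6 lay a median of -1.48 log2 units from the mean of the other 2 knock-in samples.

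Arrays 1 to 4, 5 to 8 and 9 to 12 each hold 1 sample of each genotype. The labels do not name these blocks of 4, which were picked in earlier work on these data for leaving the smallest spread, so that p-values with the blocks as a term are too small to that extent. Within arrays 1 to 4 the histone genes differed by a median of 0.60 with 46 of 51 higher in the knock-in sample, against 44.8% of all genes. Within arrays 9 to 12 the median was 0.83 with 49 of 51 higher, against 45.8% of all genes. Within arrays 5 to 8 the median was -0.03 with 24 of 51 higher, against 46.1% of all genes, so the histones as a group were not higher there. In that block the class medians were 0.02 for H1, 0.14 for H2A, -0.28 for H2B, 0.07 for H3 and -0.22 for H4. Higher in all 3 blocks were 22 of 51 genes, against 16.3% of all genes, among them H1f2, H2ac18, H2ac4, H2ac8 and H2bc4. With the blocks as a term 0 histone genes passed (lowest limma adjusted p = 0.0536, H2ac18), where 0.671% of all genes were called higher and 0.266% lower.

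**Figure D4:**
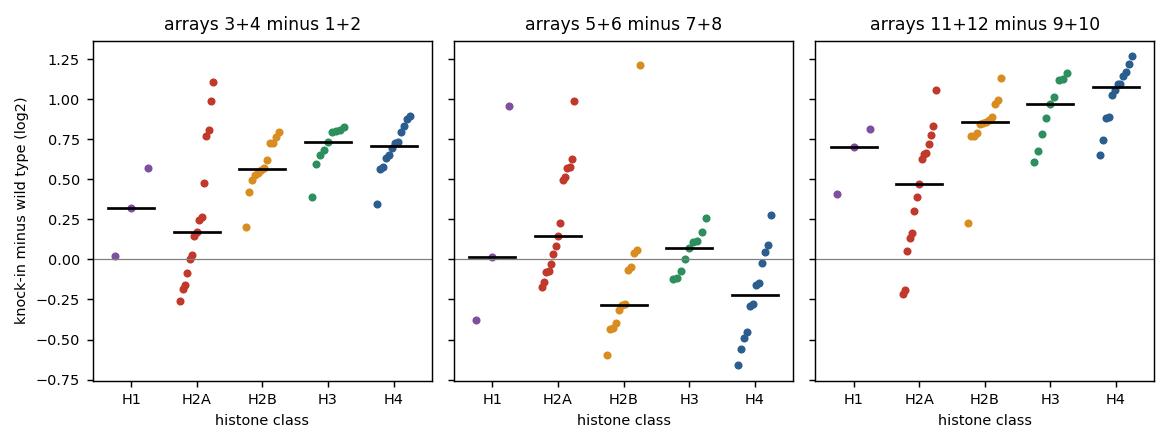
Knock-in minus wild type difference (log2, vertical) of each tested histone gene by class (points) within each block of 4 adjacent arrays, with class medians as bars. In arrays 3+4 minus 1+2 and 11+12 minus 9+10 the class medians lie above 0, and in arrays 5+6 minus 7+8 those of H2B and H4 lie below it.

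Leaving out knock-in sample 5+6 raised the overall median difference to 0.77, and 40 of 51 genes then had an unadjusted limma p under 0.05, against 8.41% of all genes in either direction. With all samples these were 8 of 51 genes and 8.65% of all genes. Sample 5+6 was set apart above by these same histone values, so the rise without it follows from how it was found and is no support. Without wild type sample 1+2 the count was 10 of 51, against 10.7% of all genes, and it was 5 of 51 without any one of the other 4 samples, against 5.95% to 7.83%, which is near the share of all genes. In each case 0 histone genes passed the adjusted test.

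Probes that carry the same symbol were compared next. Of 75 histone probes kept, 67 (89.3%) were higher in knock-in samples, against 42.8% of all 16894 kept probes. Of the 75, 68 were above the background limit on all 12 arrays, and among genes with such a probe 44 of 49 were higher. At an unadjusted p under 0.05, 15 (20%) were higher, against 5.68% of all probes, and 0 passed after adjustment (lowest limma adjusted p = 0.1), against 0.0829% of all probes. Both counts of higher probes include a dim H2bc4 and a dim H3c8 probe, above the limit on 6 of 6 knock-in and 0 of 6 wild type arrays. They also include a dim H3c4 and a dim H2bc6 probe, above it on 6 of 6 knock-in but 1 and 4 of 6 wild type arrays. These probes reached the 6 arrays of the filter in the knock-in group and not in the wild type group. Their direction is therefore no support for a difference, and the filter favours the count of higher probes. Over 20 genes with several kept probes, 24 pairs of the brightest probe with another were tested for unequal differences, and 0 passed, against 0.0406% of 4929 such pairs of all genes. At an unadjusted p under 0.05 there were 2 pairs (8.33%), against 4.95% of all pairs. In the same 2 pairs the differences were at least 0.5 apart, against 2.98% of all pairs, and in 3 pairs they had opposite signs.

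The pairs more than 0.5 apart belonged to H2ac18 and H2bc4. The brightest H2ac18 probe differed by 0.78 and the third by -0.11 ± 0.09, a gap of 0.89 ± 0.19 (limma adjusted p = 0.451). The third probe read 6.29, 6.16 and 6.22 in knock-in samples, against 6.36, 6.25 and 6.38 in wild type samples, near the background limit, while the second read 8.33, 8.66 and 8.12 in knock-in samples, against 6.80, 7.60 and 7.54 in wild type samples, a difference of 1.06 ± 0.25. So both brighter H2ac18 probes were higher in every knock-in sample than in every wild type sample, and the dimmest was not. The dimmer H2bc4 probe was above the background limit on 6 of 6 knock-in and 0 of 6 wild type arrays. It passed the filter through the knock-in arrays alone, so its direction is no support for a difference. Its knock-in mean of 6.21 was at least 1.08-fold higher than the bound for the wild type samples (limma adjusted p = 0.352), where the bound on each array is the probe's value or the dimmest signal above the limit, whichever is higher. Measured means were 6.21 in knock-in and 5.93 in wild type samples, a difference of 0.28, and the gap to the brightest probe was 0.62 ± 0.13 (limma adjusted p = 0.451).

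**Figure D5:**
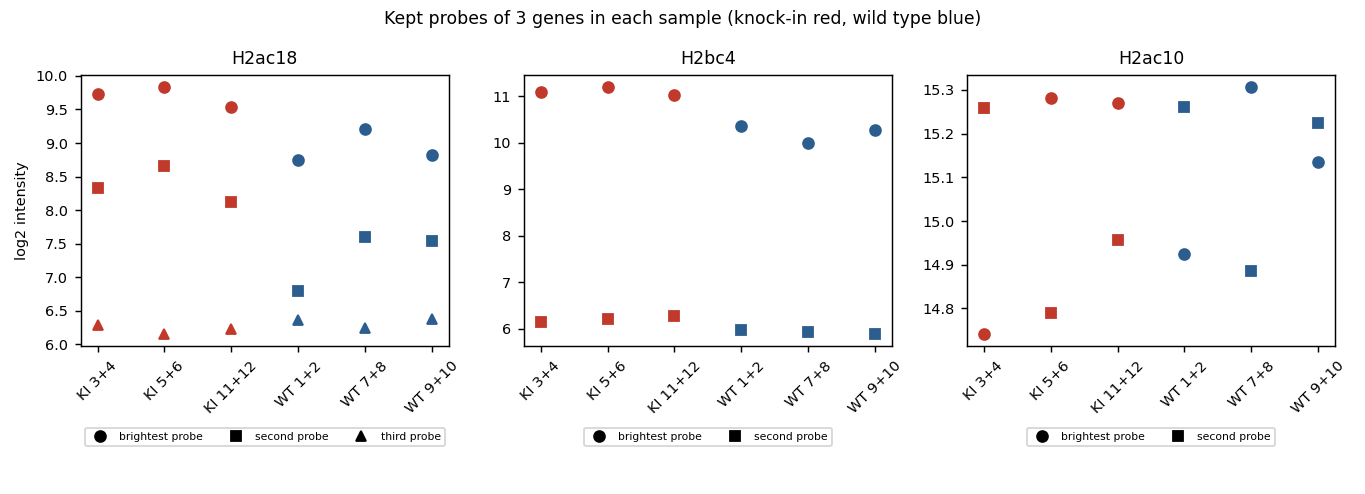
Log2 intensity of each kept probe of H2ac18, H2bc4 and H2ac10 in each sample, knock-in samples in red to the left and wild type samples in blue to the right, with a marker for each probe. Both brighter H2ac18 probes and both H2bc4 probes separate the genotypes, but the dimmer H2bc4 probe passed the filter through the knock-in arrays alone. The third H2ac18 probe does not separate them, and the 2 H2ac10 probes order the samples in opposite ways.

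Other disagreements lay in the pattern over samples, and the genes in this paragraph were chosen after their values were seen. The brightest H2ac10 probe read 14.74, 15.28 and 15.27 in knock-in samples, against 14.93, 15.31 and 15.13 in wild type samples. The other H2ac10 probe read 15.26, 14.79 and 14.96 in knock-in samples, against 15.26, 14.89 and 15.23 in wild type samples. Where the one was low the other was high, in both genotypes, although both carry the same symbol. H2ac20 likewise had a bright probe at 14.77, 15.48 and 15.31 in knock-in and 14.93, 15.45 and 15.26 in wild type samples. Its dimmer probe had 9.86, 8.49 and 9.59 in knock-in and 9.18, 8.72 and 8.95 in wild type samples, so knock-in sample 5+6 was the highest of the 6 with the bright probe and the lowest with the dimmer one. In H3c7, knock-in sample 5+6 was the lowest knock-in sample with the brightest probe and the highest with the dimmer one. The brightest H3c7 probe read 11.64, 10.40 and 11.45 in knock-in samples, against 10.83, 10.28 and 10.48 in wild type samples, and the dimmer one 7.36, 7.98 and 7.44 in knock-in samples, against 6.38, 7.10 and 6.78 in wild type samples. The dimmer H3c7 probe differed by 0.84 ± 0.24 without overlap, against 0.63 for the brightest. A dim H3c8 probe, above the limit on 6 of 6 knock-in and 0 of 6 wild type arrays, was at least 1.06-fold higher in knock-in samples (limma adjusted p = 0.358). It too passed the filter through the knock-in arrays alone, so its direction is no support for a difference.

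Other genes of histone supply were described from lists. Of 20 genes of histone gene transcription and mRNA processing, 16 were tested, 0 passed, and 10 were higher in knock-in samples with a median difference of 0.01. Npat, the coactivator of histone genes that cyclin E with Cdk2 phosphorylates, read 6.56, 6.42 and 6.40 in knock-in samples, against 6.18, 6.19 and 5.95 in wild type samples. It did not overlap between genotypes and differed by 0.35 ± 0.11 (limma adjusted p = 0.354). Npat was above the limit on 6 of 6 knock-in and 4 of 6 wild type arrays. It reached the 6 arrays of the filter in the knock-in group and not in the wild type group, so its lack of overlap is no support for a difference. The size of its difference depended on the correction, at 2.37 without background correction and 2.31 when the authors' processed values were used. Eri1, an exonuclease that trims the histone stem-loop, differed by 0.63 ± 0.29 (limma adjusted p = 0.643), with 7.14, 7.78 and 6.98 in knock-in and 7.09, 6.70 and 6.23 in wild type samples. The Eri1 difference was 1.41 with the authors' values and 1.41 without background correction. Tut7, which adds uridines to histone mRNA, differed by 0.39 ± 0.33, Hinfp, the H4 activator, by 0.12 ± 0.12, and Ncbp1, of the cap-binding complex, by 0.12 ± 0.12. Hinfp was at 0.47 without background correction.

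The cleavage factors lay near 0. Cpsf2 differed by 0.01 ± 0.15, the nuclease Cpsf3 by -0.07 ± 0.10, Sympk by -0.02 ± 0.15 and Cstf2 by -0.04 ± 0.15. Lsm10, of the U7 particle that guides histone mRNA cleavage, differed by 0.02 ± 0.10, and Zfp473, a zinc finger protein of the same complex, by -0.07 ± 0.09. Coil, the scaffold of Cajal bodies, differed by -0.05 ± 0.11, Srrt by -0.13 ± 0.21 and Mif4gd, which helps Slbp in translation, by 0.01 ± 0.18. Upf1 and Lsm1, which act in the decay of histone mRNA, each differed by 0.01 ± 0.13. The probes of Slbp and Casp8ap2 were above the limit on 0 arrays and that of Lsm11 on 4, and Pou2f1 had no probe of its own symbol, so these have no test.

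Of 15 tested chaperone genes 8 were higher, with a median difference of 0.01 and 0 past the test. The smallest p belonged to Cdan1 (codanin-1, a partner of Asf1), at 0.53 ± 0.11, Nap1l4, a carrier of H2A and H2B, at 0.52 ± 0.15, and Asf1a, a carrier of H3 and H4, at 0.28 ± 0.10 (limma adjusted p = 0.187, 0.306 and 0.431). These 3 of 15 (20%) were higher without overlap between the genotypes, against 7.23% of all genes. They were named for their small p, which favours genes without overlap. Replacement variants, which are made outside S phase too, had 6 of 9 higher and a median of 0.16. H2ax, the variant phosphorylated at DNA breaks, differed by 0.64 ± 0.15, H3f3a, which encodes H3.3, by 0.55 ± 0.14, and Cenpa, the centromeric H3, by 0.59 ± 0.15 (limma adjusted p = 0.238, 0.27 and 0.282). H2ax read 12.52, 12.20 and 12.67 in knock-in samples, against 12.00, 11.70 and 11.77 in wild type samples, so that knock-in sample 5+6 was above all wild type samples.

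Genes of S phase did not share the histones' median: 21 of 38 were higher, the median difference was 0.01, and 0 passed. Their mean was 9.33, 9.04 and 9.53 in knock-in samples, against 9.45, 9.04 and 9.24 in wild type samples. Knock-in sample 5+6 was thus the lowest knock-in sample here, as for the histones, and wild type sample 7+8 was the lowest wild type sample. Ccne2, an E-type cyclin, differed by 1.52 ± 0.28 (limma adjusted p = 0.141). With the blocks in the model its limma adjusted p was 0.0302, which is too small to the extent that the blocks were picked, in earlier work, for leaving the smallest spread in these data. Ung, which removes uracil from DNA, differed by -0.67 ± 0.14 and Pold1, a catalytic subunit of DNA polymerase delta, by -0.41 ± 0.10 (limma adjusted p = 0.18 and 0.27). Genes of mitosis had 19 of 20 higher, a median of 0.40 and 0 past the test, with Tpx2 at 0.94 ± 0.22, Ndc80 at 0.78 ± 0.22 and Ect2 at 0.73 ± 0.23 (limma adjusted p = 0.228, 0.32 and 0.354). With the same blocks in the model, and the same limit on their p-values, Ect2 and Ube2c, which marks mitotic cyclins for degradation and was named after its value was seen (1.02 ± 0.35), had limma adjusted p of 0.0476 and 0.0461. Ect2 was above the background limit on 6 of 6 knock-in and 5 of 6 wild type arrays. The mitosis mean was 9.31, 9.26 and 9.40 in knock-in samples, against 9.22, 8.84 and 8.61 in wild type samples, and knock-in sample 5+6 was not set apart there as it was for H4.

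Markers of other marrow cells were set beside the histones. The labelled erythroid cells had their genes: 12 erythroid genes averaged 12.67 ± 0.11 in knock-in and 12.53 ± 0.24 in wild type samples, with Hba-a1 and Alas2 near 15. B lineage markers were lower in knock-in samples for 13 of 13 tested, with a mean of 7.28 ± 0.08 in knock-in and 8.14 ± 0.32 in wild type samples and 0 past the test (3 with those blocks in the model), and Pax5, Vpreb2 and Rag2 were above the limit on 0 arrays. Their sample means were 7.32, 7.33 and 7.18 in knock-in samples, against 8.24, 8.40 and 7.78 in wild type samples, and knock-in sample 5+6 did not stand apart. Granulocyte markers were bright in both genotypes, at 13.50 ± 0.30 in knock-in and 13.46 ± 0.30 in wild type samples for 10 of 10 genes, with 13.62, 13.72 and 13.16 in the single knock-in samples. Macrophage and monocyte markers averaged 7.79 ± 0.39 in knock-in and 8.06 ± 0.51 in wild type samples, with 8 of 9 lower. The part of these cells in the histone differences was not tested.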

How the data were processed

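The data are one-colour Illumina bead arrays of 12 RNA samples, 6 per genotype, with genotypes taken from the titles. GenomeStudio is named, without a version, per the submitters' processing notes. Intensity values deposited by the authors as not normalized were the starting point. Values below 0 make up 33.1% to 37% of each array, which shows that a background was already subtracted. The authors' processed intensity values (scaling not given in the sources used here) were an alternative. No value column was left unused (0).

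Intensities were corrected with limma's normexp (offset 50), quantile-normalized and taken to log2, which understates folds of dim genes. The background limit of an array was the 90th percentile of its mirrored negative values, 6.6 to 7.7 intensity units, which 15988 to 18227 probes exceeded. Probes over it on at least 6 arrays were kept, 16894 in all. A gene was its brightest kept probe of 1 symbol (9388 genes). Arrays of adjacent number were averaged as duplicates: the SD of their log2 differences was 0.0933 to 0.139, while other arrays of one genotype had 0.3 to 0.447. Genotypes were compared with limma 3.58.1 in R 4.3.3 (lmFit, eBayes), p-values being adjusted over all genes by Benjamini-Hochberg, with 0.05 as threshold. Probes, and differences between a gene's brightest and other probes, were fitted likewise over 16894 probes and 4929 pairs. The procedure was tested on simulated data.

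Members and gene lists were chosen with earlier results of these data known, as were the blocks of 4 arrays, the matching that left the smallest spread in earlier work. Named are H1f1 to H1f5, in each other class the 3 tested genes with the smallest p and the one with the lowest difference, genes with probes at least 0.5 apart, all genes of histone mRNA processing, and the 3 smallest p of each other list. Genes lower in knock-in samples or not overlapping, and H2A and H2B neighbours, are named beside this rule, after their values were seen. Promoter windows are RefSeq's (GRCm38.p6), matched by the Entrez gene identifier in the array's annotation. Alternatives are cyclic loess, no background correction, scaling to the 75th percentile, the authors' values, no dim filter, a filter on all 12 arrays, the mean of probes, single arrays, duplicates as a random block, the blocks of 4, eBayes with trend and robust, and each sample left out. Figures were drawn with matplotlib 3.10.9.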

Additional observations from a re-analysis of the deposited data

How the results depend on the processing

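The counts of histone genes called by limma, 0 higher and 0 lower, were the same under 9 alternatives on all 6 samples and with each sample left out. They were 8 higher with the 12 arrays as 12 samples, where duplicates count as replicates, and 4 with duplicates as a random block (H1f2, H2ac18, H2ac4 and H2bc4). All genes called numbered 8, against 860 and 283 under those settings and 88 with the blocks as a term. Over all settings the adjusted p of H2bc4 ran from 4.2e-05 to 0.365. The H2A median was 0.49 under 75th percentile scaling, which put 57.2% of all genes above 0 in place of 41.6%. With one sample left out in turn, class medians ran from -0.0414 to 0.69 for H1, 0.23 to 0.46 for H2A, 0.17 to 0.78 for H2B, 0.40 to 0.96 for H3 and 0.22 to 0.99 for H4. Differences near 0 changed sign. Under 75th percentile scaling H2ac22 was at 0.17, Cpsf2 at -0.016, Sympk at 0.11, Cstf2 at 0.15 and Srrt at 0.14, under cyclic loess Cpsf2 was at -0.0159, Sympk at 0.0114 and Cstf2 at 0.0006, without background correction Cpsf3 was at 0.0317, and with the mean of probes Mif4gd was at -0.0285. With one sample left out the ranges were -0.0637 to 0.69 for H4c2, -0.0414 to 0.32 for H1f1, -0.0902 to 0.70 for H1f5, -0.20 to 0.0053 for H2ac22, -0.0531 to 0.0772 for Lsm10, -0.17 to 0.10 for Sympk, -0.20 to 0.0477 for Cstf2, -0.0806 to 0.12 for Upf1, -0.0875 to 0.10 for Lsm1, -0.27 to 0.0532 for Srrt, -0.11 to 0.15 for Cpsf2, -0.11 to 0.0064 for Coil and -0.17 to 0.15 for Mif4gd. The causes were not tested. No paired analysis was possible because the genotypes share no replicate numbers in the labels, and the only matching used was the blocks of 4 arrays, by array number. Without background correction, or on the authors' processed values, differences of dim genes were larger, at 2.37 and 2.31 for Npat, 1.41 in both for Eri1, 1.30 in both for H2bc8, 1.18 in both for H2ac8, 0.47 in both for Hinfp and 0.37 in both for H1f1, each with a limma adjusted p of 0.609 or more. With the mean of probes H2bc4 was at 0.59 and H2bc21 at 0.38. Precision is limited by 3 samples per genotype, by probes near background (H1f1, H2ac6, H2bc8) and by bright H2A probes near the top of the range.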
